A study of Rattus norvegicus with 8 samples.

Results

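Neutrophils made up 120 of the 32170 droplet barcodes kept from 8 libraries of rat liver immune cells. They were chosen by their own transcripts. A barcode was counted as a neutrophil when it held at least 10 UMIs (unique molecular identifiers, 1 per captured transcript) of S100a8 and S100a9 together, at least 1 UMI of Retnlg or Mmp8, and none of Vcan, a monocyte gene, or Siglech, a plasmacytoid dendritic cell gene. All barcodes kept had at least 500 UMIs and under 20% of them from the mitochondrial genome.

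The study asked whether liver immune cells that were frozen before single-cell sequencing resemble the same cells sequenced fresh. The animals were 4 male Han Wistar rats whose age is not given in the sources used here. NC1 and NC2 ate CSAA, an amino acid diet with enough choline, and PC1 and PC2 ate CDAA, its counterpart without choline, which is used to produce fatty liver with inflammation. Cells of each animal were sequenced fresh and again after 3 weeks of cryopreservation in dimethyl sulfoxide (DMSO) and serum, so that each fresh library has a DMSO library from the same rat. The cells of every group had been pressed through filters, cleared of red cells and collected over a lymphocyte separation medium, a density step meant for mononuclear cells and not for granulocytes. Each library held between 18338700 and 26471843 UMIs in total.

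Neutrophils are short-lived phagocytes made in the bone marrow. They load their granules in steps while they mature, the azurophil granules with myeloperoxidase and elastase first and the specific and gelatinase granules with lactoferrin, cathelicidin and metalloproteinases later, and mature cells then stop most transcription of granule genes. S100a8 and S100a9 encode the 2 subunits of calprotectin, the main protein of the neutrophil cytosol. In the liver neutrophils patrol the sinusoids and enter the tissue during injury. They hold little RNA compared with other leukocytes.

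The neutrophils were few in every library. Fresh libraries had 17 of 4617 barcodes in NC1, 7 of 4129 in NC2, 15 of 4122 in PC1 and 26 of 4190 in PC2. DMSO libraries had 18 of 3555 in NC1, 7 of 3431 in NC2, 11 of 3902 in PC1 and 19 of 4224 in PC2. As shares these were 0.368%, 0.1695%, 0.364% and 0.621% fresh and 0.506%, 0.204%, 0.282% and 0.450% after DMSO. NC2 had the lowest share in both states. With so few barcodes the exact Clopper-Pearson 95% intervals were wide, from 0.0682% to 0.349% for NC2 fresh and from 0.406% to 0.908% for PC2 fresh, and these intervals cover counting error only.

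The share moved in both directions after DMSO under this rule. It rose by 0.138 percentage points in NC1 and 0.0345 in NC2 and fell by 0.0820 in PC1 and 0.171 in PC2, a mean of -0.0200 ± 0.135 (SD, n = 4 animals). An exact permutation test over the 16 sign changes gave p = 0.875 (two-sided), where the smallest p that 4 animals allow is 0.13. Leaving out PC1 or PC2 turned the sign of the mean, to 0.000633 and 0.0302 percentage points. When at least 2 UMIs of Retnlg or Mmp8 were required, the share was lower after DMSO in 4 of 4 animals, by -0.101 percentage points on average (exact permutation p = 0.13). In fresh libraries the mean share was 0.269% in NC and 0.492% in PC rats, and after DMSO 0.355% and 0.366%. The diets overlapped in both states, and the exact permutation test between fresh diets gave p = 0.667, with 0.333 the smallest p that 2 against 2 animals can give.

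**Figure D1:**
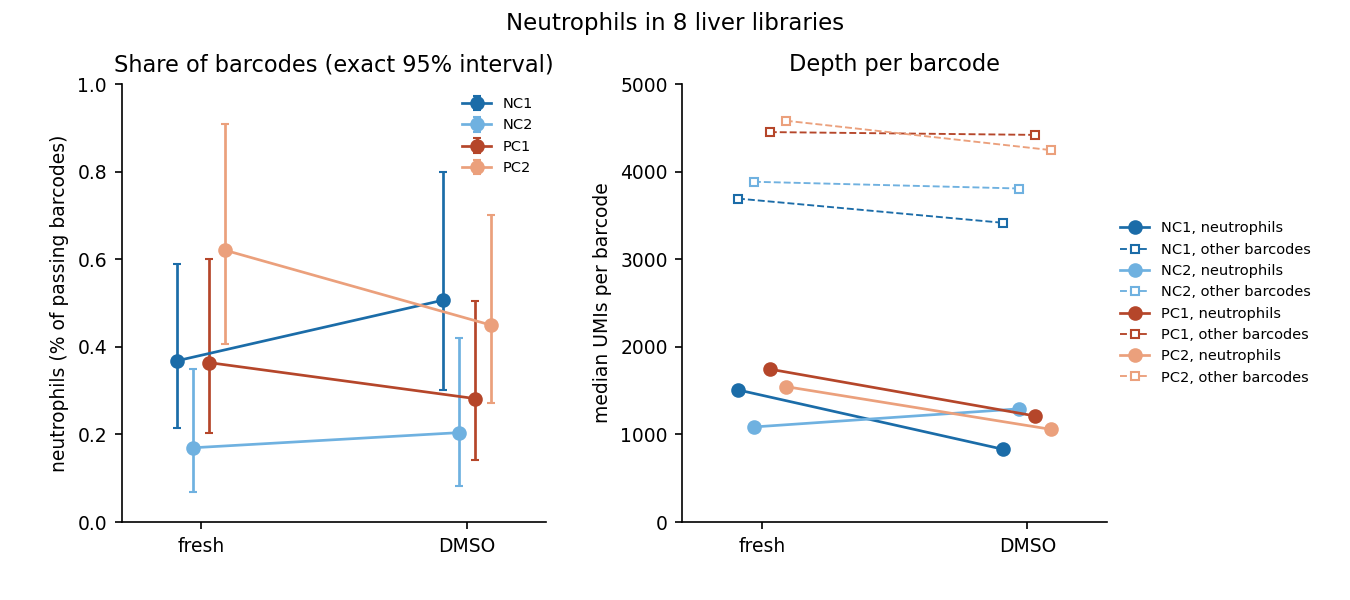
Left, neutrophils as percent of passing barcodes in each animal, fresh and after DMSO, with exact 95% intervals. Right, median UMIs per barcode for neutrophils (circles) and all other passing barcodes (open squares). The share rises in NC1 and NC2 and falls in PC1 and PC2, and in all 8 libraries the neutrophils' median of 829 to 1745 UMIs lies below the other barcodes' 3415 to 4581.

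A neutrophil barcode held 547 to 12007 UMIs, with a median of 1361. The deepest was a PC2 fresh barcode with at least 20 natural killer cell marker UMIs, described below. The median per library was 1508, 1085, 1745 and 1546 UMIs in fresh NC1, NC2, PC1 and PC2, and 829, 1292, 1210 and 1057 after DMSO. It was lower after DMSO in NC1, PC1 and PC2 and higher in NC2, by -374 ± 396 UMIs on average (SD, n = 4, exact permutation p = 0.25). With at least 1000 UMIs per barcode it was lower in 4 of 4 animals, by -315.6 ± 91.8 (SD, exact permutation p = 0.13). So it was with at least 50 S100a8 and S100a9 UMIs and no demand for Retnlg or Mmp8. There the mean was -320.8 ± 133 (SD, exact permutation p = 0.13). The number of genes detected per neutrophil went from medians of 626, 518, 651 and 622.5 in fresh libraries to 399, 493, 513 and 491 after DMSO. This was lower in 4 of 4 animals, by -130 ± 82.7 genes (SD, n = 4, exact permutation p = 0.13, the smallest possible). When every barcode was reduced to 500 UMIs the difference was -6.08 genes, lower in 3 of 4 animals (exact permutation p = 0.625). The other barcodes of the same libraries also gave fewer UMIs after DMSO in 4 of 4 animals, by -180.5 in the median. Median mitochondrial percentages of the neutrophils were 3.61, 5.62, 3.25 and 4.06 in fresh libraries and 3.39, 6.85, 3.58 and 2.93 after DMSO, with no common direction.

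At 500 UMIs a neutrophil showed fewer different genes than another cell. The 500-UMI medians were 252.3 to 277.4 genes in neutrophils and 301.2 to 320.8 in 500 of the other barcodes of each library, and the ranges over the 8 libraries did not overlap. S100a8 and S100a9 alone took 18.0%, 19.03%, 20.1% and 11.5% of the neutrophil UMIs in fresh NC1, NC2, PC1 and PC2 and 14.8%, 15.9%, 14.0% and 14.8% after DMSO. The low value of PC2 fresh was 17.5% without 3 barcodes with at least 20 natural killer cell marker UMIs, which are described below. Since S100a8 and S100a9 chose the barcodes, that share is a description. Both genes also took part of the 500 UMIs of each neutrophil, so the lower number of genes is a description too.

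The limits of the rule fell in a sparse region for S100a8 and S100a9 and in a dense one for Retnlg and Mmp8. Only 2 neutrophils had 10 to 19 S100a8 and S100a9 UMIs, and the lowest had 17. Among 266 barcodes that met every other limit, 131 had no S100a8 or S100a9 UMI, 130 had 1 to 4, 5 had 5 to 9, and the highest had 9. In contrast, 40 of the 120 neutrophils had a single UMI of Retnlg or Mmp8. Retnlg, a secreted resistin-like protein, and Mmp8, neutrophil collagenase, were both detected in 47 neutrophils, Mmp8 alone in 55 and Retnlg alone in 18.

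A further 122 barcodes had at least 50 S100a8 and S100a9 UMIs without meeting the rule, and 79 of them lacked Retnlg, Mmp8, Vcan and Siglech alike. In these 79 the summed level of Lrg1, a glycoprotein stored in neutrophil granules, was 4105 CPM (UMIs of the gene scaled to a total of 1e6) against a median of 3759 CPM in the neutrophils of the 8 libraries. Stfa2l2 stood at 6377 CPM against 6213, Il1b at 4875 against 2602 and Ccl6 at 9146 against 7242. Pglyrp1 was lower, at 955.5 against 1556 CPM, and so was Camp, at 458.3 against 1189 CPM. The 9 monocyte and macrophage markers summed to 1521 CPM in the 79. Their median over libraries was 591 CPM in the neutrophils and 1415 CPM in the other barcodes. The count of 120 is therefore what this rule finds at this depth. With at least 50 S100a8 and S100a9 UMIs and no demand for Retnlg or Mmp8, the libraries held 33, 12, 24 and 32 fresh barcodes and 28, 7, 19 and 34 after DMSO.

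Calprotectin transcripts were found in the near-empty droplets of every library, which were taken to hold free RNA only. Droplets with at most 100 UMIs gave 416, 335, 429 and 527 CPM of S100a8 and S100a9 together in fresh NC1, NC2, PC1 and PC2, and 223, 165, 365 and 674 CPM after DMSO. At least 1 such UMI was seen in 35.8% to 66.5% of the other barcodes of fresh libraries and 21.8% to 54.5% after DMSO, so that 1 UMI of these genes does not mark a neutrophil. Between 11 and 114 other barcodes per library had at least 10. Free RNA and the cells' own transcripts were not separated. The neutrophils themselves held at least 17. That lowest count was in the PC2 fresh barcode of 12007 UMIs, which had 1 Mmp8 UMI and no Retnlg. Its label as a neutrophil is uncertain, and how many of its 17 UMIs were free RNA was not tested. No barcode was a neutrophil in more than 1 library. In 5 cases the sequence of a neutrophil was another passing barcode in a second library. Pairs of libraries shared only 10 to 29 passing barcode sequences. With so few neutrophils a repeat was unlikely in any case, so its absence is a description.

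The 20 genes with the highest ratio of neutrophil to other barcodes in the same library included the 4 genes required by the rule. The ratios below are the lowest over the 8 libraries and carry no test, because the barcodes were chosen within this contrast. Among genes that did not enter the rule, Pglyrp1, a peptidoglycan-binding granule protein, was at least 250 times higher in neutrophils in every library. Il1r2, the decoy receptor that binds interleukin 1 without signalling, was 121 times higher. Lrg1 was 49.5 times higher and Camp, the precursor of the antimicrobial peptide cathelicidin, 38.4 times. Stefin genes, which encode cystatin-type protease inhibitors, were represented by Stfa2 (138 times) and Stfa2l2 (107 times). Clec4d, a C-type lectin receptor for fungal and mycobacterial ligands, reached 27.5 times and Mcemp1, a membrane protein of myeloid cells, 21.7 times.

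Others of the 20 leading genes are known for different roles. Ifit1bl was 167 times, Ifit3 19.8 times and Oas1a 9.52 times higher, all 3 from antiviral families. Il1b, the precursor of interleukin 1 beta, was 14.8 times higher, Gadd45a, a growth arrest and stress gene, 10.6 times, and the chemokine gene Ccl6 8.10 times. The order among the first genes rests on very few UMIs in the other barcodes, where Mmp8 and Retnlg stood at 5.39 CPM or less in every library. Reads of the stefin genes and of LOC689230, at 188 times, can be split between near-identical copies, so their levels are uncertain.

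**Figure D2:**
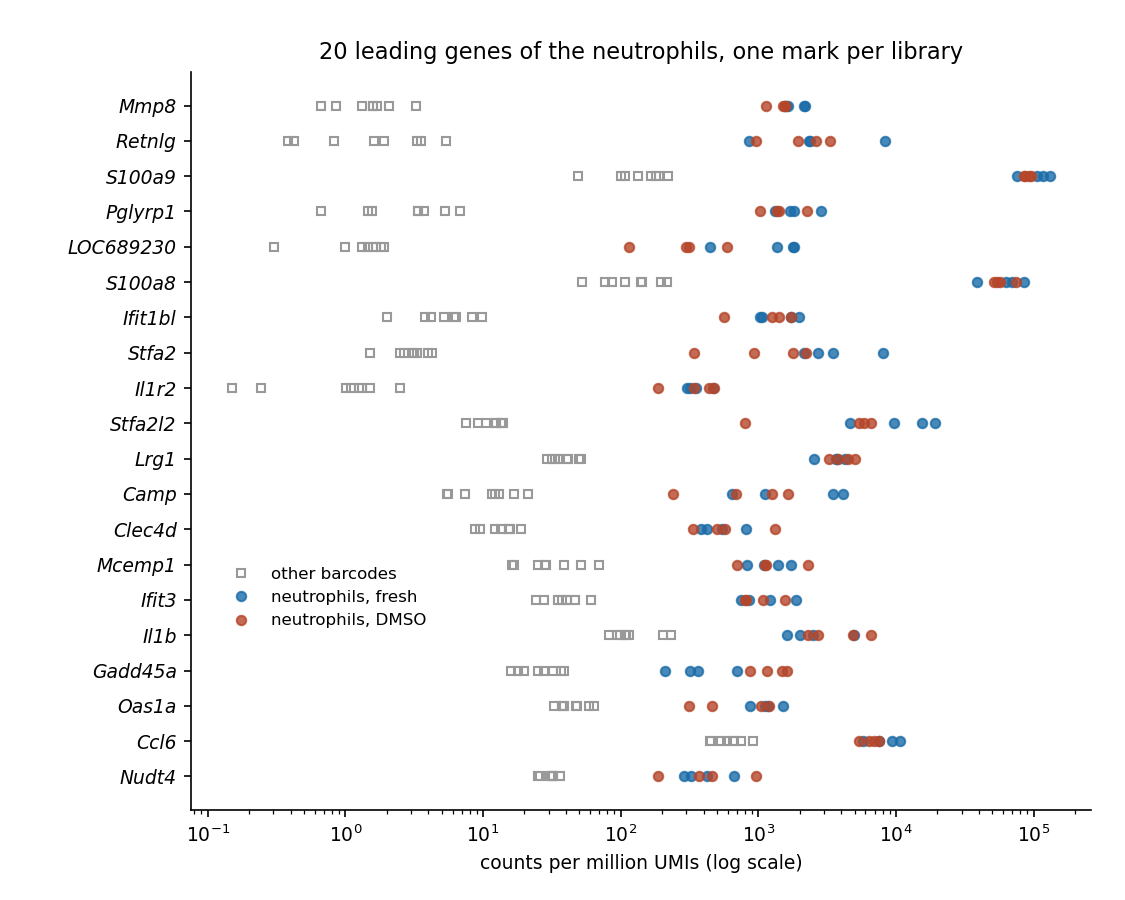
Level in CPM, on a log axis, of the 20 genes with the highest ratio of neutrophils to other barcodes; each filled point is the neutrophils of 1 library (blue fresh, red DMSO) and each open square the other barcodes of 1 library. The neutrophil points lie to the right of the other barcodes for all 20 genes, and no test is attached because the barcodes were chosen in this contrast.

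Several granule genes were missing or nearly so, among both the early azurophil and the later specific granule genes. Mpo, myeloperoxidase, of the first kind and Ltf, lactoferrin, of the second had 0 UMIs in all 120 neutrophils. A count of 0 among 193693 neutrophil UMIs allows up to 15.5 CPM by counting error. Elane, neutrophil elastase, had 5 UMIs, and the 8 primary granule genes together had 33, of which 23 were from Serpinb1a, an inhibitor of neutrophil proteases. Lcn2, a siderophore-binding protein of specific granules, had 1. Other genes of later granules were present, with 329 UMIs of Pglyrp1, 272 of Chi3l1, 85 of Hp and 38 of Mmp9, the gelatinase B gene. Summed over the 15 secondary and tertiary granule genes of the table, the level ranged from 5219 to 15210 CPM in neutrophils and from 1147 to 2547 CPM in other barcodes.

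Some receptors known from mature neutrophils were scarce. Csf3r, the receptor for granulocyte colony-stimulating factor, was detected in 28 of 120 neutrophils. Cxcr2, the main receptor for neutrophil-attracting chemokines, gave 2 UMIs and Fpr1, a formyl peptide receptor, gave 0. The 25 receptor genes of chemotaxis and adhesion together reached 2040 to 3640 CPM, above the 766.8 to 1210 CPM of the other barcodes. Calprotectin, Retnlg and Mmp8 were used to choose the barcodes, so their presence cannot support the label of neutrophils. Outside the rule the label rests on other late granule genes such as Pglyrp1, on Il1r2 and on Lrg1. The azurophil granule genes and Fpr1 gave almost no UMIs at this depth.

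Markers of other cells were mostly below their level in the other barcodes, with exceptions that mostly rested on few UMIs. Vsig4, Marco, Timd4, Ms4a1, Pax5, Xcr1, Clec9a, Hdc, Hbb, Mki67 and Top2a, which mark Kupffer cells, B cells, dendritic cells, basophils, red cells and dividing cells, had no UMI in any neutrophil. The 9 monocyte and macrophage markers summed to a median of 591 CPM over libraries, against 1415 CPM in other barcodes, with Fcnb as the most abundant at 132 of 232 UMIs and Vcan at 0 by the rule. PC2 fresh went the other way, at 2434 against 1945 CPM, and held 109 of the Fcnb UMIs. The 8 Kupffer cell markers gave 398 against 1018 CPM, the 6 T cell markers 252.5 against 736.9 CPM and the 8 B and plasma cell markers, led by Cd79b with 13 UMIs, 73.3 against 283 CPM. T cell markers were higher in the neutrophils of PC2 DMSO, at 704.8 against 531.6 CPM, but 12 of the 19 UMIs were in 1 barcode and the level without it was 333.6 CPM. The 7 conventional dendritic cell markers summed to 2173 to 4480 CPM, against 7059 to 9784 CPM in other barcodes, and 528 of their 613 UMIs were Cd74, the MHC class II invariant chain, which many cells express. Cycling markers had 32 UMIs, 31 of them Stmn1, and red cell markers had 4, all Hba-a2. Platelet markers had 3 UMIs, hepatocyte markers 1 and endothelial or stellate cell markers 4, and with red cell markers these lists were above the other barcodes in at most 2 libraries each. Whether these transcripts had a part in the results was not tested. Ribosomal protein genes summed to 91000 to 142800 CPM in neutrophils, below the other barcodes of the same library in all 8.

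Natural killer (NK) cell transcripts stood out in PC2. The 7 NK markers, led by the granzyme gene Gzma, gave 1014, 2553, 1700 and 5492 CPM in fresh NC1, NC2, PC1 and PC2 neutrophils and 716, 1372, 1120 and 2485 CPM after DMSO. In droplets with at most 100 UMIs the median over libraries was 4111 CPM. No doublet caller was run, but 3 PC2 fresh barcodes had at least 20 NK marker UMIs. Those of 4340 and 6665 UMIs held 85 and 148, or 19590 and 22210 CPM, beside 47 and 209 S100a8 and S100a9 UMIs. The third, of 12007 UMIs, held 25, or 2082 CPM, no more than the rest of the library, beside 17 S100a8 and S100a9 UMIs. Together the 3 carried 36.8% of the neutrophil UMIs of that library, and without them its NK level was 2155 CPM. A PC2 DMSO barcode of 5975 UMIs with 12 T cell, 11 NK and 1 B cell marker UMIs beside 116 of S100a8 and S100a9 carried 22.2% of the neutrophil UMIs of its library. Without the 3 fresh barcodes the share of neutrophils in PC2 changed by -0.0991 percentage points after DMSO, and the mean over the 4 animals was -0.00212 (exact permutation p = 1.0).

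The neutrophils were not uniform. Stfa2l2 behaved almost as an on or off gene. It had at least 5 UMIs in 50 neutrophils, 1 to 4 in 4 and none in 66, and the 50 held 1500 of all 1505 Stfa2l2 UMIs and 477 of the 478 Stfa2 UMIs. Both states occurred in every library, with 8 of 17, 4 of 7, 8 of 15 and 8 of 26 neutrophils at 5 or more UMIs in fresh NC1, NC2, PC1 and PC2, and 9 of 18, 1 of 7, 4 of 11 and 8 of 19 after DMSO. Pooled over libraries this was 43.1% of fresh and 40% of DMSO neutrophils, at the same limit of 5 UMIs. The median count of those at 5 or more was 34 UMIs fresh and 11.5 after DMSO. These pooled values are a description and were not tested. Neutrophils with and without Stfa2l2 had similar depth, with medians of 1361 and 1384 UMIs, and the same held for S100a8 and S100a9, with medians of 209.5 and 212 UMIs.

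A smaller set was marked by Camp. There were 9 neutrophils with at least 5 Camp UMIs, 6 fresh and 3 after DMSO, in 7 libraries and all 4 animals. They had a median of 727 S100a8 and S100a9 UMIs against 187 in the other 111, and they were 8 of the 12 neutrophils with 500 or more. None of the 9 had an Il1b UMI, whereas 11 of the other 111 lacked it. Their summed Ccl6 level was 1348 CPM against 8623 CPM, and Retnlg was 8654 against 2419 CPM. Isg15, an interferon-induced ubiquitin-like protein, was absent from 8 of the 9 and from 54 of the 111. The grouping was made after these values had been seen, so no test is given, and the 9 barcodes were also deeper, at a median of 2499 against 1292 UMIs.

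Ngp, neutrophilic granule protein, was limited to 4 neutrophils. A single NC1 fresh barcode with 91 Camp UMIs held 88 of the 106 Ngp UMIs, or 83.0%, and an NC2 fresh barcode held 11. Il1b had at least 5 UMIs in 47 neutrophils and none in 20. Isg15 had at least 5 UMIs in 22 and none in 62, and summed to 1676, 957, 2278 and 656 CPM in fresh NC1, NC2, PC1 and PC2 and to 3879, 229, 622 and 1335 CPM after DMSO.

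**Figure D3:**
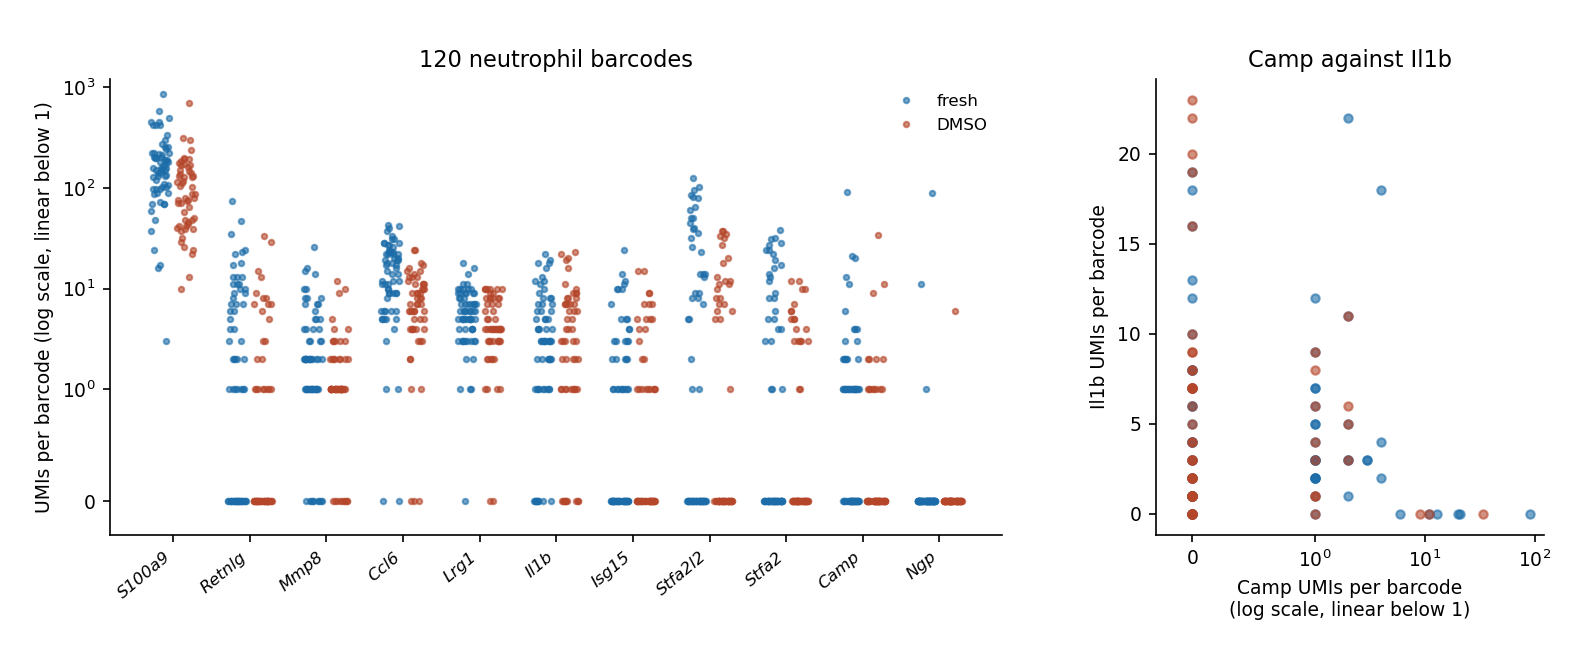
Left, UMIs per neutrophil barcode of selected genes (log axis, linear below 1; blue fresh, red DMSO), 1 point per barcode. Right, Il1b against Camp UMIs for the 120 neutrophils; the 9 barcodes with at least 5 Camp UMIs all lie at 0 Il1b.

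A small set of genes was higher in the neutrophils after DMSO cryopreservation. Of 255 genes with enough UMIs to be tested, 8 were called at an adjusted p under 0.05 and at least 2-fold (edgeR quasi-likelihood test with animal as a block, Benjamini-Hochberg adjustment), which is 3.14% of those tested, and all 8 rose. Jun, Fos, Dusp1, Zfp36, Ccl3, Gadd45a and Ftl1 are described below. All 8 were higher in 4 of 4 animals, with fresh and DMSO libraries that did not overlap. The paired test and the 2-fold minimum favour such genes, so this is a description and no further support. How many of the 255 genes did the same was not counted. At an unadjusted p under 0.05 there were 32 genes. Freezing, 3 weeks of storage and thawing come together in this comparison and cannot be told apart. The low UMI totals meant that most genes of the genome could not be tested. Jun, Fos, Dusp1, Zfp36, Ccl3 and Gadd45a had enough UMIs for the test only with their DMSO libraries counted. That all 8 rose is therefore a description.

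Jun and Fos encode partner subunits of the AP-1 transcription factor, which stimuli induce within minutes. Jun had 0, 213, 0 and 64 CPM in fresh NC1, NC2, PC1 and PC2 and 1611, 3659, 933 and 1484 CPM after DMSO, a log2 fold change of 4.97 ± 0.44 (SE, adjusted p = 5.59e-05, edgeR). Fos had 780, 0, 181 and 32 CPM fresh and 2506, 1144, 1929 and 1373 CPM after DMSO, a log2 fold change of 3.07 ± 0.51 (SE, adjusted p = 0.00600, edgeR). Jun had at most 4 UMIs in any fresh library, and all 4 in PC2 came from 1 barcode. Without the 3 PC2 fresh barcodes with at least 20 NK marker UMIs its PC2 fresh level was 0 and its log2 fold change 5.92 ± 0.53 (SE, adjusted p = 8.66e-07, edgeR). Fos was also low in fresh NC2, PC1 and PC2, but NC1 held 20 UMIs of it before freezing.

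Dusp1 encodes a phosphatase that switches off stress kinases, and Zfp36 encodes tristetraprolin, which marks cytokine messages for decay. Dusp1 went from 1832, 745, 542 and 336 CPM to 4058, 3202, 1929 and 1892 CPM, with a log2 fold change of 1.84 ± 0.27 (SE, adjusted p = 0.00362, edgeR). Zfp36 went from 585, 319, 434 and 240 CPM to 1492, 1144, 1431 and 1039 CPM, with a log2 fold change of 1.75 ± 0.27 (SE, adjusted p = 0.00362, edgeR). NC1 was the highest fresh library for both genes and remained the highest after DMSO.

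Ccl3, the chemokine MIP-1 alpha, had the smallest adjusted p together with Jun. It measured 546, 319, 217 and 176 CPM in fresh neutrophils and 3163, 2516, 2676 and 1966 CPM after DMSO, a log2 fold change of 3.14 ± 0.27 (SE, adjusted p = 5.59e-05, edgeR). The highest fresh library lay well below the lowest DMSO library. Gadd45a went from 702, 319, 362 and 208 CPM to 1611, 1487, 871 and 1150 CPM, with a log2 fold change of 1.75 ± 0.32 (SE, adjusted p = 0.00925, edgeR).

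Ftl1, the light chain of the iron store ferritin, rose from 3041, 2659, 4087 and 4883 CPM to 6206, 11435, 6783 and 8346 CPM (log2 fold change 1.11 ± 0.22, SE, adjusted p = 0.0161, edgeR). The highest DMSO value of Ftl1 was in NC2, and without that animal its fold change of 0.82 on the log2 scale was under the 2-fold limit. Ferritin genes have near-identical copies, so part of the counts of Ftl1 may be assigned to or taken from a copy. DESeq2 called 6 of the 8 genes, and Ftl1 was not among them (adjusted p = 0.0505).

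**Figure D4:**
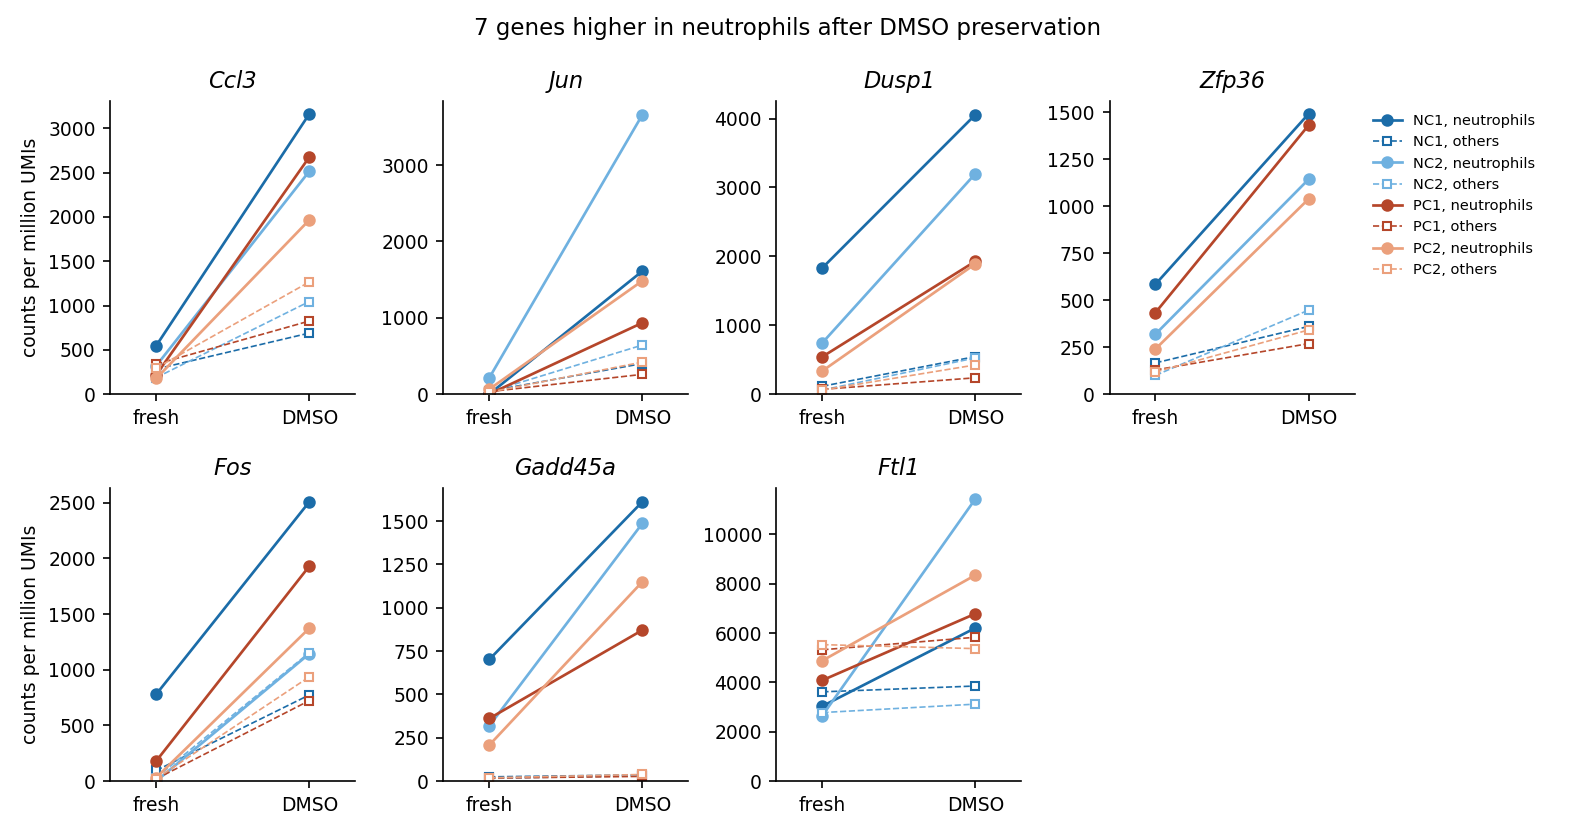
Level in CPM of 7 of the called genes in neutrophils (filled, solid lines) and in all other barcodes (open, dashed lines) of each animal, fresh and after DMSO. Each solid line rises in all 4 animals, and Ftl1 stays nearly flat in the other barcodes.

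The count depended on 1 animal and on the pairing. Without PC1 2 genes were called, Jun and Ccl3, and Dusp1, Zfp36, Gadd45a, Ftl1 and Fos had the same direction with adjusted p from 0.0658 to 0.11 (edgeR). Without the animal as a block 5 genes were called, among them Ccl3, Jun, Zfp36 and Ftl1. Restricting the neutrophils to those with at least 1000 UMIs left 1, Ccl3. Without the 3 PC2 fresh barcodes with at least 20 NK marker UMIs 13 genes were called, 9 up and 4 down, and all 8 were among them. The 4 that fell in that fit were LOC689230, by 1.75 on the log2 scale, Stfa2, by 1.47, Stfa2l2, by 1.40, and LOC100362738, by 1.29. That fit took barcodes from the fresh side alone. When the PC2 DMSO barcode with 24 lymphocyte marker UMIs was left out as well, the same 8 genes were called and none fell. With all barcodes LOC689230 had a log2 fold change of -1.51 ± 0.53 (SE, adjusted p = 0.185, edgeR) and Stfa2l2 -1.20 ± 0.55 (SE, adjusted p = 0.397, edgeR), and neither passed.

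Of the 24 genes of the immediate early list 6 could be tested and 4 rose (Jun, Fos, Dusp1 and Zfp36), where 3.14% of all genes tested were called. The median log2 fold change of the 6 was 1.79, beside 0.0139 over all 255 genes. With at most 4 UMIs in any fresh library, Jun entered the test through its DMSO counts. Fos, Dusp1 and Zfp36 also had enough UMIs for the test only with their DMSO libraries counted. The count of 4 and the median are therefore descriptions and no support for the list as a group. Junb and Btg2 did not pass, with values of 0.87 and 0.96 and adjusted p of 0.0816 and 0.165 (edgeR), and Btg2 was lower after DMSO in NC2, at 343 against 532 CPM. The summed level of the whole list was 7252, 3191, 3038 and 2001 CPM in fresh NC1, NC2, PC1 and PC2 and 16830, 13610, 10450 and 9311 CPM after DMSO, without overlap.

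In the other functional lists few or no genes passed. Of 23 cytokine and chemokine genes 4 were tested and 1 rose, Ccl3, while Il1b had a log2 fold change of 0.63 (adjusted p = 0.0949, edgeR) and Ccl6 of -0.31. Of 18 survival and apoptosis genes 2 were tested and 1 rose, Gadd45a. None passed among 6 interferon-stimulated genes tested (median -0.143), 4 secondary and tertiary granule genes (median -0.087), 10 cytoskeleton genes (median -0.177), 61 ribosomal protein genes (median 0.0944), 7 mitochondrially encoded genes (median 0.02) or 4 MHC class II genes (median 0.228). The same was true of the 2 oxidative burst genes Rac2 and Cyba, the 2 glycolysis genes Aldoa and Ldha, the receptor gene Clec4d and Nfkbia, the only NF-kB feedback gene tested. NK marker Gzma had a log2 fold change of -1.05 (adjusted p = 0.0816, edgeR), or -0.48 without the 3 PC2 fresh barcodes with at least 20 NK marker UMIs. All 8 calls were also made without those barcodes.

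The other barcodes of the same libraries, tested in the same way, gave 87 called genes of 11474, or 0.758%, with 34 up and 53 down. The genes of the rule were counted there, and without them it was 86 of 11468, with 52 down. Far more UMIs per library stood behind that fit, so the 2 counts are not on the same footing. Without the animal block 11 were called there, and leaving out NC1, NC2, PC1 or PC2 gave 186, 33, 55 and 50. All 8 neutrophil genes were higher after DMSO in the other barcodes too, where 5694 of all 11474 genes were higher. There 5 of the 8 were called. Jun changed by 3.79, Fos by 4.72, Dusp1 by 2.56, Zfp36 by 1.52 and Ccl3 by 1.84 on the log2 scale, while Gadd45a had 0.85, under the 2-fold limit but with an adjusted p of 0.0012 (edgeR), and Ftl1 had 0.14, and neither was called. Of the 24 immediate early genes 22 could be tested there and 8 rose.

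Whether neutrophils responded differently from the other cells was tested as the interaction within the same libraries. No gene of 255 passed (0%, edgeR), 12 had an unadjusted p under 0.05, and DESeq2 also called 0. Ftl1 came closest, with a rise larger in neutrophils by 1.10 ± 0.28 on the log2 scale (SE, unadjusted p = 0.00160, adjusted p = 0.208, edgeR). Ccl3 had a difference of 1.48 ± 0.48 and Fos of -1.36 ± 0.62 (SE, adjusted p = 0.654 and 0.884, edgeR). Without PC2 1 gene passed, LOC689230. A response particular to neutrophils was thus not detectable at this depth.

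Promoter sequence was available for 3 of the 8 genes in the RefSeq table of the rat GRCr8 assembly. The 250 bases before the start are shown for Dusp1 and Gadd45a because they rose after DMSO and hold letters of the cyclic AMP response element, a stretch bound by CREB and ATF factors; Zfp36 (chr1:92799109-92799358, minus strand) held none. The letters searched, on both strands, were TGACGTCA, its inner TGACG, which every TGACGTCA contains, and TGACTCA of AP-1. Capitals mark the matches, and each sequence runs 5′ to 3′ along the gene. Dusp1 lies at chr10:17184603-17184852 on the plus strand and Gadd45a at chr4:97486800-97487049 on the minus strand.
Dusp1: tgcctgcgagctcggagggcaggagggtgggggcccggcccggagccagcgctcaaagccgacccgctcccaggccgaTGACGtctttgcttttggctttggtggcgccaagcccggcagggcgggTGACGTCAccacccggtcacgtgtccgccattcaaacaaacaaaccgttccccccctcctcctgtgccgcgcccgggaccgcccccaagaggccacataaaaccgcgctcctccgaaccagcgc
Gadd45a: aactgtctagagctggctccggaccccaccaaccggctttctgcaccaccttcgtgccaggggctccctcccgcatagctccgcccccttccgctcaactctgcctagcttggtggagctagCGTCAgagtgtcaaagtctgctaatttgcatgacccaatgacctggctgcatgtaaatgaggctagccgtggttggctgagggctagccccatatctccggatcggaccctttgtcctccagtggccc

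In the Dusp1 window TGACGTCA stood 124 to 117 bases before the start and a further TGACG 172 to 168 bases before it. In the Gadd45a window TGACG occurred once, on the reverse strand and so printed as CGTCA, 128 to 124 bases before the start. Of 33469 rat promoter windows of this length 1.59% held TGACGTCA and 18.2% held TGACG, against 4.05% for TGACTCA. These matches describe the letters only, and no binding was measured.

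Diet was compared in the fresh neutrophils of 2 PC and 2 NC rats. Of 349 genes tested 2 were called (0.573%, edgeR quasi-likelihood test, Benjamini-Hochberg adjustment), Ngp and Camp, both lower in PC. Camp measured 4133 and 3510 CPM in NC1 and NC2 and 1121 and 640 CPM in PC1 and PC2, a log2 fold change of -2.31 ± 0.41 (SE, adjusted p = 0.0232, edgeR). Without the 3 PC2 fresh barcodes with at least 20 NK marker UMIs PC2 had 989 CPM and the value was -1.90 ± 0.26 (SE, adjusted p = 0.0136, edgeR). Ngp had 88 and 12 UMIs in NC1 and NC2 and 0 in both PC libraries (adjusted p = 0.000552, edgeR). Against the 3 UMIs that a count of 0 allows over the 2 PC libraries, this was at least 85.7-fold lower. That bound leans on NC1, where 1 barcode held all 88 UMIs. With NC2 alone, at 12 UMIs, it would be lower.

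Both calls rested on 2 barcodes. When the neutrophils with at least 10 Ngp UMIs, 1 in NC1 and 1 in NC2, were left out, 0 genes were called (17 with an unadjusted p under 0.05, edgeR), and Camp had a log2 fold change of -0.81 (adjusted p = 0.901, edgeR). After DMSO the same animals had 239 and 1258 CPM of Camp in NC and 685 and 1632 CPM in PC, a value of 0.84 in the opposite direction that did not pass (adjusted p = 0.708, edgeR). Without NC1 or PC2 1 gene was called, and without NC2 or PC1 10 and 14. The other fresh barcodes gave 126 called genes of 11744, or 1.07%, with 89 up and 37 down in PC, and leaving out NC1, NC2, PC1 or PC2 gave 339, 362, 18 and 3.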

How the data were processed

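Liver immune cells of 4 rats were sequenced fresh and after DMSO with Chromium 3' v2 chemistry. The authors processed the reads with Cell Ranger 2.1.1 and the rat Rnor6.0 genome (the submitters' processing notes also name bcl2fastq 2.17.1.14 and STAR) and deposited UMI counts per gene and barcode, not normalized, with empty droplets included. Of these, 32754 genes were used here. Neutrophils were chosen by the transcript limits stated above, and these limits and all gene lists were chosen with earlier results of these data known. UMIs were summed per library over neutrophils and over other barcodes. Cells were not treated as replicates.

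Sums were tested with edgeR 4.0.16 in R 4.3.3 (TMM, filterByExpr, quasi-likelihood, animal as block for preservation because both libraries came from the same rat). A gene was called at an adjusted p under 0.05 and at least 2-fold. In neutrophils the 4 rule genes in the fit are not counted. Named genes were all called genes that moved alike in every animal, or for diet without overlap, the 20 genes with the highest ratio among those with at least 50 neutrophil UMIs, and the list members, apart from some items that are not reported here. Ratios used a floor of 3 UMIs. DESeq2 1.42.0 served as an alternative. Shares were compared with exact permutation tests (Python 3.11.15, scipy 1.17.1). Fits were also tested on simulated data, and no result given here rests on those tests. Doublets were not removed.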

Additional observations from a re-analysis of the deposited data

Results flagged for a closer look

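In the 64 sets of 4 libraries examined, 2 held a library far from the other 3, and chance flags about 1 such set in 20. Ngp stood at 222.6 CPM in the PC2 DMSO neutrophils and at 0 in the other 3 DMSO libraries, and the PC2 value was 6 UMIs. Mmp8 stood at 1144 CPM in the NC2 DMSO neutrophils, which were 7 barcodes, against 1521 to 1556 CPM in the other 3 DMSO libraries. Mmp8 was used to choose the barcodes, so its level is a description.

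The share of neutrophils rose after DMSO in both NC rats and fell in both PC rats. The mean change of the NC rats exceeded that of the PC rats by 0.213 percentage points, and this difference between diets was not tested. The directions depended on how neutrophils were chosen. With at least 50 S100a8 and S100a9 UMIs and no demand for Retnlg or Mmp8 the share fell by 0.0866 percentage points in NC2 and rose by 0.0412 in PC2, and with at least 1000 UMIs per barcode it fell by 0.127 in NC1. With at least 2 Retnlg or Mmp8 UMIs it fell in both NC rats, by 0.0847 in NC1 and 0.0628 in NC2.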

How the results depend on the processing

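The shares, the medians per neutrophil and the gene tests were recomputed under alternatives, and not every alternative was run for every result. The alternatives without the 3 or 4 barcodes with at least 20 lymphocyte marker UMIs were chosen after seeing the data. So were those without a demand for Retnlg or Mmp8 and without the Ngp-rich neutrophils. For preservation in neutrophils, 8 genes were called with DESeq2 size factors, 6 by DESeq2, 15 with no filter on low counts (9 up, 6 down), 1 with at least 10 counts in every library, 5 by Bonferroni, 1 with at least 1000 UMIs per barcode, 20 with at least 2 Retnlg or Mmp8 UMIs (13 up, 7 down) and 13 without the 3 PC2 fresh barcodes with at least 20 NK marker UMIs, and again 8 without 1 more, of PC2 DMSO. Without the replicate block on animal, which comes from the shared rat, 5 were called. Leaving out 1 animal gave 2 to 12, lowest without PC1. The interaction gave 0 to 1 when 1 animal was left out. For diet in fresh neutrophils, 1 gene was called with no filter, 1 with at least 10 counts in every library, 13 with at least 1000 UMIs, 0 under 10% mitochondrial UMIs, 0 with at least 20 S100a8 and S100a9 UMIs, 1 in the preserved libraries (Osm), 1 with both states summed, 5 with the replicate number as a block, which pairs no animals, and 0 without the Ngp-rich neutrophils. Leaving out 1 animal, where the lone rat of a diet is assumed to vary like the others, gave 1 to 14, and Camp reversed to 0.84 in the preserved libraries. In other barcodes, preservation gave 1045 calls with no fold minimum, 11 without the replicate block and 33 to 186 without 1 animal, and diet gave 3 to 362 without 1 animal. The mean share difference reversed to 0.00755 percentage points with barcodes of at least 300 UMIs, was -0.133 (lower in 3 of 4 animals) with at least 1000, and ranged from -0.0727 to 0.0302 without 1 animal. With at least 2 Retnlg or Mmp8 UMIs it was -0.101, lower in 4 of 4 animals (exact permutation p = 0.13). Among the named genes, 31 values under the settings chosen first and 1 under a later one kept their direction and lost their call. The causes were not tested. The fits without neutrophils holding 2 lymphocyte marker UMIs and with at least 20 neutrophils per library were not run for want of neutrophils. Libraries of 7 to 26 neutrophils limit all of these tests, and most genes had too few UMIs to be tested.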
